A study of Gallus gallus with 6 samples.

Results

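The miRNAs described here are the known miRNAs of the chick embryo heart whose name carries a number of 1400 or above. They were chosen by name alone, from the lists of known miRNAs of all 6 libraries, and each mature sequence was counted once in a library. In all, 48 names with 50 distinct mature sequences met the rule, of 230 distinct known sequences. The other 180 sequences carry 79 names with numbers of 551 or lower, and the lowest number among the members is 1416. mir-2188 and mir-2964 each had a mature sequence of 22 nt and another of 21 nt, and the other 46 names had a single sequence each.

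Small RNA of 18 to 30 nt from whole hearts of Gallus gallus embryos was sequenced in 6 libraries, CHL1 to CHL6, for day 4 (stage HH24), day 6 (HH29), day 8 (HH34), day 10 (HH36), day 12 (HH38) and day 14 (HH40) of incubation. The embryos came from hatchery eggs, no treatment or strain was labelled, and the stage was the only labelled difference between libraries. Each stage was 1 library of pooled RNA, the number of hearts per pool was not given, and no test between stages was possible. All comparisons are therefore descriptions of these libraries, with intervals that cover counting error only. PCR reads are not independent molecules, so the intervals leave out amplification as well as the variation between embryos.

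The libraries differed in the total behind the RPM values (reads scaled to a common library total) and in the length of what was listed. That total ran from 228290 reads on day 14 to 37495805 on day 12. It is not the sequencing depth, since the raw reads given in the paper order the libraries differently. Known reads were 0.609% of this total on day 4, 35.6% on day 6 and 6.99% on day 14. A sequence needed at least 6 reads to be listed on days 4, 6, 8 and 14, 7 on day 12 and 2 on day 10. Of the known sequences, 45 of 51 had 23 nt on day 8 and 71 of 76 had 21 nt on day 10, while 22 nt was the most frequent length on the other days. As a check of the tissue, miR-133, of heart and skeletal muscle, was listed in 5 libraries at up to 1341 RPM. Endothelial miR-126 was listed in 5, at up to 203858 RPM on day 10. miR-499, of the heart, was listed on day 10 only, at 207723 RPM. miR-1 and miR-208, of muscle, and miR-451, of red cells, were in none of the lines used here, while miR-144, also of red cells, was in 2 libraries at up to 638 RPM. Neural miR-9 and hepatic miR-122 were each listed in 5 libraries, at up to 838 and 534 RPM, and neural miR-124 in 2 at up to 7.29, and their part in the results was not tested.

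A miRNA is cut from a folded transcript, the hairpin, first by Drosha and then by Dicer. A strand of the resulting duplex, the mature strand, is loaded into an Argonaute protein, and its partner, the star strand, is mostly degraded. Bases 2 to 8 of the mature strand, the seed, pair with target messages and largely decide which messages are repressed. miRBase numbers miRNAs in the order in which they were registered, and a homologue found later in another species keeps the older number. High numbers in a chicken list are therefore mostly miRNAs that were first seen in birds or in other vertebrates sequenced late.

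The member sequences that carry most of the reads are printed first, as deposited (T for U, 5′ to 3′), with the seed in capitals. Positions are those of the deposited lists, on Gallus gallus v.2.1. mir-2188 and mir-2964 are shown in every form listed, since the forms differ only at the 3′ end and keep 1 seed each.
mir-2188, 22 nt: aAGGTCCAacctcacatgtcct
mir-2188, 21 nt: aAGGTCCAacctcacatgtcc
mir-2964, 22 nt: cACAAGAAttgcgtttggacaa
mir-2964, 21 nt: cACAAGAAttgcgtttggaca
mir-2964, 23 nt: cACAAGAAttgcgtttggacaat
The 22-nt forms lie at chr22:2685020-2685041 and chr17:5577829-5577850, both on the minus strand. The 23-nt form of mir-2964 was listed on day 8 among the sequences absent from miRBase, which the study calls NSSCs.

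The next sequences belong to the members that followed in reads on days 6 and 12 and to the most abundant members listed on a single day.
mir-1559: tTCGATGCttgtatgctactcc
mir-1451: tCGCACAGgagcaagttaccgc
mir-1720: aAGCAACGagaggtcggtctga
mir-1662: tTGACATCatcatacttgggat
mir-1805: tGTATTGGaacactacagctcc
mir-1729: aTCCCTTActcacatgagtagtc
mir-1416: tCCTTAACtcatgccgctgtg
mir-2131: aTGCAGAAgtgcacggaaacagct
They lie at chr7:1330109-1330130 (mir-1559), chr3:78710232-78710253 (mir-1451), chr10:14823391-14823412 (mir-1720), chr2:1721343-1721364 (mir-1662), chr1:135141617-135141638 (mir-1805), chr15:769601-769623 (mir-1729), chrZ:34596495-34596515 (mir-1416) and chrZ:68816780-68816803 (mir-2131). The members did not form seed families. Their 50 sequences had 48 different seeds, and 0 of these were shared with another listed name. Of the 78 seeds of names under 1400, 10 were shared by at least 2 names. Some of those names, such as mir-31 and mir-31mir-72, were listed with the same hairpin values, and names such as let-7 and mir-30 cover several sequences. The 10 are therefore not a count of seed families.

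Members made up 0 of 34 known sequences on day 4, 29 of 112 on day 6, 7 of 51 on day 8, 13 of 76 on day 10, 31 of 123 on day 12 and 2 of 41 on day 14. They were 25.9% of the list on day 6, 25.2% of that on day 12 and 4.88% of that on day 14. The day 10 count rests on the 94 lines used. Another 366 lines of that list hold a sequence but no read number and were not used. Names found only in them are not counted here or below. In reads they were a far smaller part. Member reads were 7064 of 3287963 known reads on day 6, which is 0.215% (95% Wilson interval 0.210 to 0.220). They were 431 of 842117 on day 8 (0.0512%, interval 0.0466 to 0.0562), 4696 of 1736563 on day 10 (0.270%, interval 0.263 to 0.278) and 45611 of 7660483 on day 12 (0.595%, interval 0.590 to 0.601). On day 14 the 119 member reads of 15957 made 0.746% (interval 0.624 to 0.892). On day 4, 0 of the 17020 listed known reads belonged to a member. The lowest number listed there was 6, so reads of rarer members could be missing and no upper limit is given. In the order days 8, 6, 10, 12 and 14 the intervals of neighbours did not overlap. The order depends on what is counted. Much of the known reads of some libraries lay in single names under 1400. On day 6 mir-10 had 2403702 reads, and on day 10 mir-499 had 712093 and mir-126 had 698845. Shares without these names were not computed. With NSSCs on the same arms added, day 8 moved to 0.742%, beside 0.745% on day 14, and of the total behind the RPM values day 10 had the highest share, 0.137%, and day 14 had 0.0521%, below the 0.0764% of day 6.

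**Figure D1:**
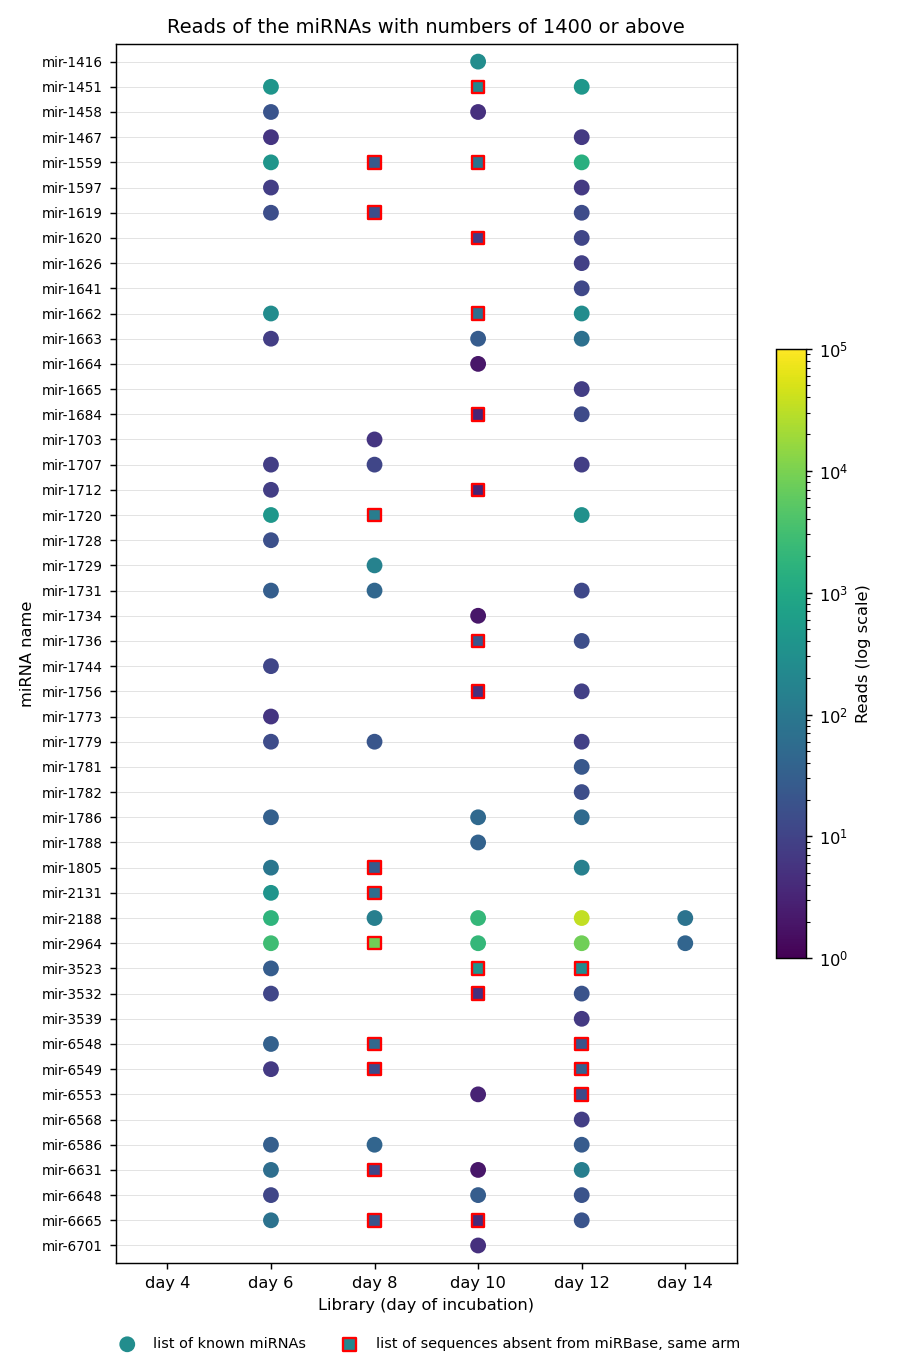
Reads of each member name (vertical axis) in the 6 libraries (horizontal axis), with colour for the reads on a log scale. Circles are entries of the lists of known miRNAs and red-edged squares are entries of the lists of sequences absent from miRBase that lie on the same arm. mir-2188 and mir-2964 are the 2 names with entries from day 6 to day 14, and day 4 has none.

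Most members were rare. The median member had 29, 41, 27 and 15 reads in the libraries of days 6, 8, 10 and 12, against 1329, 1644.5, 522 and 3464 reads for the known sequences with numbers under 1400. The ratio of these medians was between 19.3 (day 10) and 231 (day 12). On day 6, 27 of the 29 members lay below the median of the others, and on day 12, 29 of 31 did. On day 14 only 2 members were listed, with 79 and 40 reads beside a median of 40 for the 39 others. At the shares of day 6 the third member would have had 2.19 reads there, below the lowest number listed, 6. The rare members are thus missing from the comparison of that day. Ranked by reads, the highest member was at place 17 of 41 on day 14, 20 of 76 on day 10, 23 of 123 on day 12, 32 of 112 on day 6 and 33 of 51 on day 8.

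**Figure D2:**
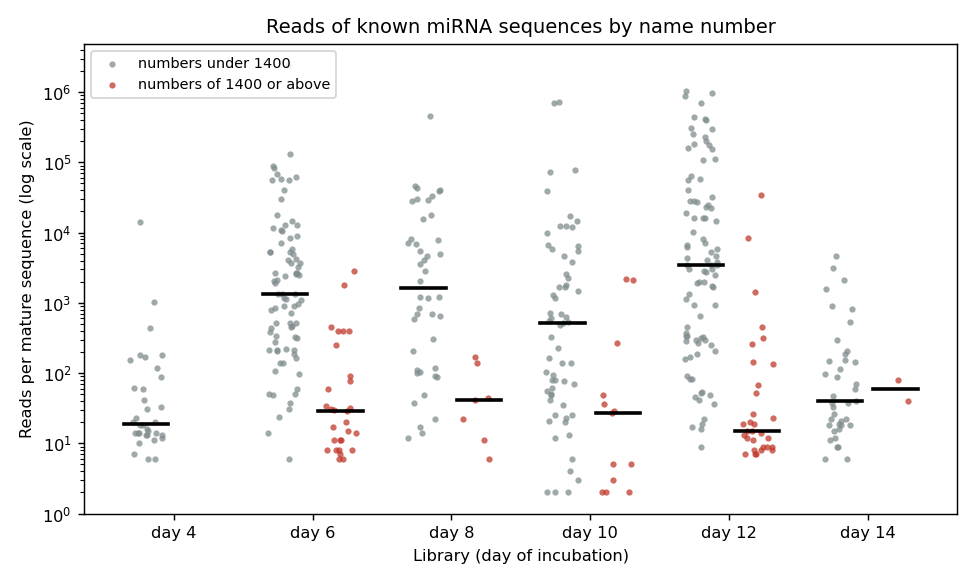
Reads of each known mature sequence (log scale, vertical axis) by library (horizontal axis), in grey for numbers under 1400 and in red for numbers of 1400 or above, with a black bar at the median. The red medians of days 6, 8, 10 and 12 sit at 29, 41, 27 and 15 reads, below the grey medians of 1329, 1644.5, 522 and 3464.

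The member reads were concentrated in 2 names. mir-2188 and mir-2964 together held 65.6% of the member reads on day 6, 90.9 and 93.2% on days 10 and 12, and all of them on day 14. On day 8 the leading pair was mir-1729 and mir-2188, with 71.2%. Without the leading pair of each library the share of known reads was 0.0738, 0.0147, 0.0246 and 0.0406% for days 6, 8, 10 and 12. Day 14 listed only its leading pair, so nothing was left to compare there. By bands of the name number, the 33 names from 1400 to below 2000 had 5291 reads over all libraries, the 3 names from 2000 to below 3000 had 52058 and the 12 names of 3000 and above had 572.

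mir-2188, a miRNA annotated in fish, frogs and birds, was the only member listed on 5 days. Its reads numbered 1807, 139, 2097, 34237 and 79 in the libraries of days 6, 8, 10, 12 and 14. In RPM these were 195, 24.9, 612, 913 and 346, and as shares of the known reads 0.0550, 0.0165, 0.121, 0.447 and 0.495%. On both scales day 8 was the lowest of the 5 libraries, and the highest was day 12 by RPM and day 14 by share. The sequence of days 6, 8, 12 and 14 was the 22-nt form and that of day 10 the 21-nt form. On day 8, where most listed sequences had 23 nt, no 23-nt form of mir-2188 was among the lines used here, and its 22-nt form was 1 of the 6 known sequences of another length.

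mir-2964 had 2830, 2171, 8264 and 40 reads in the lists of known miRNAs of days 6, 10, 12 and 14. Its RPM was 306, 633, 220 and 175 in the same order. On day 8 no known entry was listed, but the 23-nt form had 8091 reads, or 1448 RPM, among the NSSCs. With that form counted, mir-2964 was listed on the same 5 days as mir-2188. Its RPM was then highest on day 8, the day on which that of mir-2188 was lowest. The mir-2964 form of day 8 has 23 nt, the length of most sequences listed that day, and that of mir-2188 has 22 nt. The part of length in this contrast was not tested. The RefSeq annotation (assembly GRCg7b) gives gga-mir-219b as another name of this gene and places it across the gene of miR-219, a miRNA known from neural tissue and myelin-forming cells.

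These names were also followed into the 2 libraries with the fewest known reads. If the shares of day 6 had held on day 4, mir-2964 would have had 14.6 reads there and mir-2188 9.35, with 6 reads as the lowest number listed, and neither was listed. At the shares of day 12 the numbers would have been 18.4 and 76.1. The member with the next highest share on day 6, mir-1720, came to 2.33 reads, so that at the shares of day 6, 2 of its 29 members reached that number on day 4. Of the 83 other sequences of day 6, 44 reached 6 reads in the same calculation, and 26 of these were listed on day 4. At the shares of day 6, most members would therefore have had fewer than 6 reads on days 4 and 14. On day 14 the same 2 members reached that number and both were listed.

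Counted by name, members were listed on fewer days than the other known miRNAs, and counted by exact sequence the difference was small. Of the 48 names, 27 were in 1 library, 11 in 2, 8 in 3, 1 in 4 and 1 in 5, with 0 in all 6 libraries and a median of 1. Of the 79 names under 1400, 13 were in 1 library and 6 in all 6, with a median of 3, so 56.3% of members and 16.5% of the others were in a single library. By exact sequence these were 29 of 50 members (58%) and 91 of 180 others (50.6%), with a median of 1 in both groups. The others have 180 sequences on 79 names, so a name can be listed in a library through any of several sequences. In the other direction, a miRNA listed under different names, such as mir-31 and mir-31mir-72, has its days split between them. Days 6 and 12 shared 20 member names, which is 69.0% of the 29 names of day 6 and 64.5% of the 31 names of day 12. For names under 1400 the same shares were 93.2 and 85.9%. The differences in library totals, in reads and in sequences per name were not removed from these shares. Names in the 366 unused lines of day 10 were not counted, so the days listed may be too few.

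The 8 names listed on 3 days formed a set on days 6, 8 and 12 and a set on days 6, 10 and 12. In the first set, mir-1731 had 30, 44 and 12 reads, mir-6586 had 31, 41 and 26, mir-1779 had 14, 22 and 9, and mir-1707 had 8, 11 and 8. All 4 had their highest number on day 8, and all 4 sequences have 23 nt, the length that fills the list of that day. In the second set, mir-1663 had 8, 27 and 67 reads, mir-1786 had 32, 48 and 52, mir-6648 had 11, 29 and 19, and mir-6631 had 60, 2 and 134. The sequences of mir-1663, mir-1786 and mir-6648 have 21 nt, the length that fills the list of day 10, and mir-6631, with 22 nt, was at the lowest number listed there. Within these 8 names the days listed went with the length of the sequence, except for mir-6631. Other members differed in this. mir-1458, of 21 nt, was listed on days 6 and 10, but mir-1781 and mir-1782, also of 21 nt, on day 12 only. mir-1467, of 23 nt, was listed on days 6 and 12 and not on day 8. The part of length in the days and levels was not tested. The 10 names listed on days 6 and 12 alone ranged from mir-1467, with 6 and 7 reads, to mir-1559, with 397 and 1413, and mir-1458 was listed on days 6 and 10 with 20 and 5 reads.

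The names listed once had few reads, with some exceptions. Their days are those of the lines used from the lists of known miRNAs. Lines of day 10 without a read number were not counted. Several of these names had forms among the NSSCs of other days. Among these were mir-2131, with 61 reads on day 8, and mir-3523, with 372 on day 10. The 11 names of day 12 alone (mir-1620, mir-1626, mir-1641, mir-1665, mir-1684, mir-1736, mir-1756, mir-1781, mir-1782, mir-3539 and mir-6568) had between 7 and 23 reads. The 6 names of day 10 alone were mir-1416 with 269 reads, mir-1788 with 36, mir-6701 with 5, mir-6553 with 3, and mir-1664 and mir-1734 with 2 each. The 8 names of day 6 alone were led by mir-2131, with 394 reads, and the others (mir-6548, mir-3523, mir-1728, mir-1744, mir-1712, mir-6549 and mir-1773) had between 6 and 34. On day 8 alone there were mir-1729, with 168 reads, and mir-1703, with 6.

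The lists of NSSCs held further forms of the members. A search of the NSSCs found 25 entries that overlapped the mature arm of a member by at least 15 nt on the same strand, for 20 of the 48 names, with 10, 11 and 4 entries on days 8, 10 and 12. No count of such forms is given for names under 1400. The counts of this paragraph therefore do not set members apart from other known miRNAs. In 18 of the 25 the 5′ end, and so the seed, was that of the known sequence. None of these names had a known entry in the same library. The 3′ end of mir-1451 was 1 nt shorter on day 10 (203 reads), as were those of mir-1559 (85 reads) and mir-1662 (63 reads). mir-1559 was 1 nt longer on day 8 (25 reads). mir-3523, at 29 known reads on day 6, had 372 reads on day 10 and 232 on day 12 in a form 1 nt shorter. The day 8 form of mir-1720, with 124 reads, began 1 nt earlier, so that its seed was shifted.
mir-1720 on days 6 and 12: aAGCAACGagaggtcggtctga
mir-1720 on day 8: aAAGCAACgagaggtcggtctga
With these entries joined, members numbered 17, 24 and 35 in the libraries of days 8, 10 and 12, and the names in a single library were 17 of 48 instead of 27. The share of reads on day 8 then became 0.742% instead of 0.0512%, almost all of it from the 8091 reads of mir-2964.

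Levels were compared between libraries for exact sequences listed in both, over the 4 pairs of libraries that shared at least 5 members. Day 6 enters 3 of these pairs and day 12 enters 2, so the comparisons share libraries. Between day 6 and day 12, 20 members could be compared. A level at least 2-fold higher in RPM on day 12 was found for 2 of the 20, against 24.1% of the 87 known sequences listed in both libraries. A level at least 2-fold lower was found for 15 of the 20, against 50.6% of all 87. The median log2 ratio was -1.82 for members and -1.09 for all 87. Taken as shares of known reads the medians were -1.02 and -0.29, and the counts became 2 higher and 10 lower of 20, against 33.3% of all 87 in each direction. The 2 scales thus differ by a shift of all ratios, and single members are best read against the median of all sequences.

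mir-2188 stood highest among the members in this pair. Its RPM was 195 on day 6 and 913 on day 12, a log2 ratio of 2.22 (95% interval of the counts 2.16 to 2.29), or 3.31 above the median of all 87 sequences, and 11 sequences of lower number had a higher ratio. mir-1663 had 8 reads on day 6 and 67 on day 12, a log2 ratio of 1.05 whose interval begins at -0.01 and so includes 0. These were the only members with a higher RPM on day 12. mir-1559 had 42.9 RPM on day 6 and 37.7 on day 12 (log2 -0.19, interval -0.35 to -0.03), and mir-2964 306 and 220 (log2 -0.47, interval -0.54 to -0.41), so that both were above the median of all sequences. Their sign depends on the scale, since as shares of known reads both were higher on day 12 (log2 0.61 and 0.33).

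The next members in reads on both days lay below that median. mir-1720 had 451 and 321 reads (log2 -2.51, interval -2.72 to -2.30), mir-1662 had 254 and 256 (log2 -2.01, interval -2.26 to -1.76) and mir-1451 had 398 and 453 (log2 -1.83, interval -2.03 to -1.64). The reads of the last pair were thus nearly equal in number on both days, in libraries with 9246255 and 37495805 reads behind the RPM values. The lowest ratio of a member was that of mir-6665, with 76 reads on day 6 and 20 on day 12 (log2 -3.95, interval -4.66 to -3.24). In 18 of the 20 members the interval lay below 0 on the RPM scale, against 63.2% of all 87 sequences. Past 4-fold, 1 of 20 was higher, against 14.9%, and 9 were lower, against 32.2%.

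**Figure D3:**
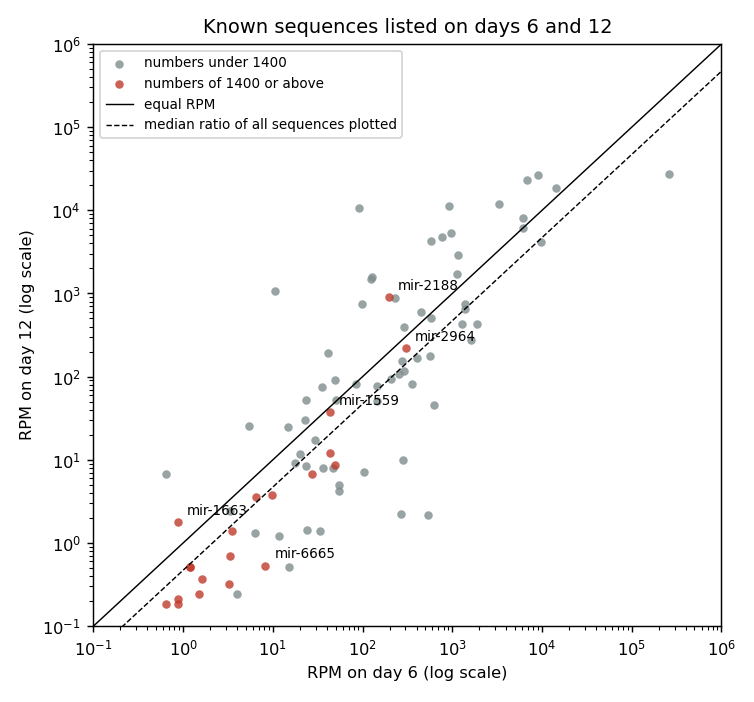
RPM on day 12 (vertical axis) against RPM on day 6 (horizontal axis), both on log scales, for the 87 known sequences listed on both days, with members in red. The solid line marks equal RPM and the dashed line the median log2 ratio of all sequences, -1.09. mir-2188 and mir-1663 are the only red points above the solid line.

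Fewer members could be compared in the other pairs. From day 6 to day 8, 4 of 5 members were at least 2-fold higher in RPM, against 67.9% of the 28 sequences in both libraries, and 1 was at least 2-fold lower, against 21.4%. Past 4-fold, 0 of 5 were higher, against 25.0%. The 4 were mir-1779, mir-1731, mir-1707 and mir-6586, with log2 ratios of 1.38, 1.28, 1.19 and 1.13 beside a median of 1.31 for all 28, and reads of 8 to 31 on day 6 and 11 to 44 on day 8. The lower sequence was mir-2188 (log2 -2.97, interval -3.22 to -2.73). From day 8 to day 12 the same 4 names were at least 2-fold lower, against 69.2% of 26 sequences, and mir-2188 was at least 2-fold higher (log2 5.20, interval 4.96 to 5.44), against 30.8%. mir-2188 was thus the member that went against the median of all sequences in both pairs that include day 8. It was also the only 1 of these members with 22 nt. The other 4 have 23 nt, the length of 45 of the 51 known sequences of day 8. Its level on that day cannot be told apart from this difference in length.

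From day 6 to day 10, 3 of 5 members were at least 2-fold higher, against 58.8% of 17 sequences. mir-1663 had 8 and 27 reads (log2 3.19, interval 2.05 to 4.32), mir-6648 had 11 and 29 (log2 2.83, interval 1.83 to 3.83) and mir-1786 had 32 and 48 (log2 2.02, interval 1.37 to 2.66). A level at least 2-fold lower was seen in 1 of 5, against 23.5%, and this was mir-6631, with 60 reads on day 6 and 2 on day 10 (log2 -3.48, interval -5.51 to -1.44). mir-1458, with 20 and 5 reads, passed neither limit (log2 -0.57, interval -1.98 to 0.85). As shares of known reads 2 of 5 were at least 2-fold lower, against 29.4% of 17. Summed by name, 5 of the 7 member names listed on both days were at least 2-fold higher in RPM, against 39.6% of 48 names. The 17 sequences had a median log2 ratio of 2.26, and on day 10 the 21-nt list leaves few exact sequences in common with day 6. Of the 5 members, mir-6631 has 22 nt and the others have 21 nt, the length of 71 of the 76 known sequences of day 10. The part of length in these ratios was not tested.

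The hairpins of members had about the same folding energy as those of the other miRNAs and a wider range of base composition. With each sequence counted once, the median energy was -33.15 kcal/mol for 50 members and -32.3 for 180 others, with ranges of -52.9 to -17.8 and -54.4 to -19.0. Each sequence entered with the hairpin of the first day that listed it. Within libraries the order varied, with medians of -29.0 kcal/mol for members and -31.3 for others on day 6, and -32.6 and -30.6 on day 12. On day 10 they were -40.3 and -38.4, with median hairpin lengths of 76 and 84 nt, against 73 and 71 nt on day 6. The pooled medians thus mix this difference between lists with that between groups. The median share of G and C bases was 48.6% for members (28.2 to 76.4%) and 45.7% for others (31.3 to 61.7%). Of the 50 members, 37 lay above the median of the others and 22 above their upper quartile, where 45 of the 180 others lie. The median of members was the higher in each of the 5 libraries that list any, for example 50.0 against 46.4% on day 6 and 47.5 against 45.4% on day 12. In the mature sequences the medians were 50.0 and 43.5%. Per nucleotide of hairpin the energies were -0.45 and -0.44 kcal/mol, but the spread was wider among members, with a SD of 0.12 and 0.06.

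The members at the ends of these ranges were mostly rare. mir-3523 had the hairpin richest in G and C, at 76.4%, followed by mir-6568 at 75%, while mir-1786 was the lowest, at 28.2%, and mir-1458 followed at 32.1%. mir-1786 also had the highest energy, -17.8 kcal/mol, and 32, 48 and 52 reads on days 6, 10 and 12. mir-1664 had the lowest energy, -52.9 kcal/mol over 63 nt, from 2 reads on day 10, and mir-6648 the next lowest, -48.6 over 59 nt. Their values per nucleotide, -0.84 and -0.82 kcal/mol, were below every hairpin of the names under 1400, the lowest of which was at -0.59, as was that of mir-3523, at -0.69. The hairpins of mir-1788 and mir-1451, both at -0.60, were also below that lowest value. So was that of mir-1663 on days 10 and 12, at -0.65 and -0.63. With each sequence counted once, mir-1663 entered with its day 6 value, -0.29, which is taken up below. mir-1451 was not rare among members, with 398 and 453 reads on days 6 and 12. Refolded with RNAfold, 92.1% of the bases of the mir-1664 hairpin and 88.1% of those of mir-6648 were paired, against a median of 73.4% for members and 76.1% for others. RefSeq lists 2 genes across the mir-6648 position. The mature sequences of these members show what the extremes look like.
mir-1664: tCTGTGACctcatttacctcc
mir-6648: tCCGGCATtctgaacgctcct
mir-3523: cCGCGCAGtgcctcgtcctcga
mir-1786: aTTCTTTTctgctgtgttact

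A deposited energy was doubtful for 1 member. mir-1663 had the same 70-nt hairpin on days 6 and 12, with energies of -20.4 and -43.8 kcal/mol, and RNAfold gave -43.4. This was the only member hairpin that differed from the refolded value by more than 3 kcal/mol, beside 4 hairpin energies of names under 1400. The refolded medians were -33.6 kcal/mol for members and -32.1 for others.

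**Figure D4:**
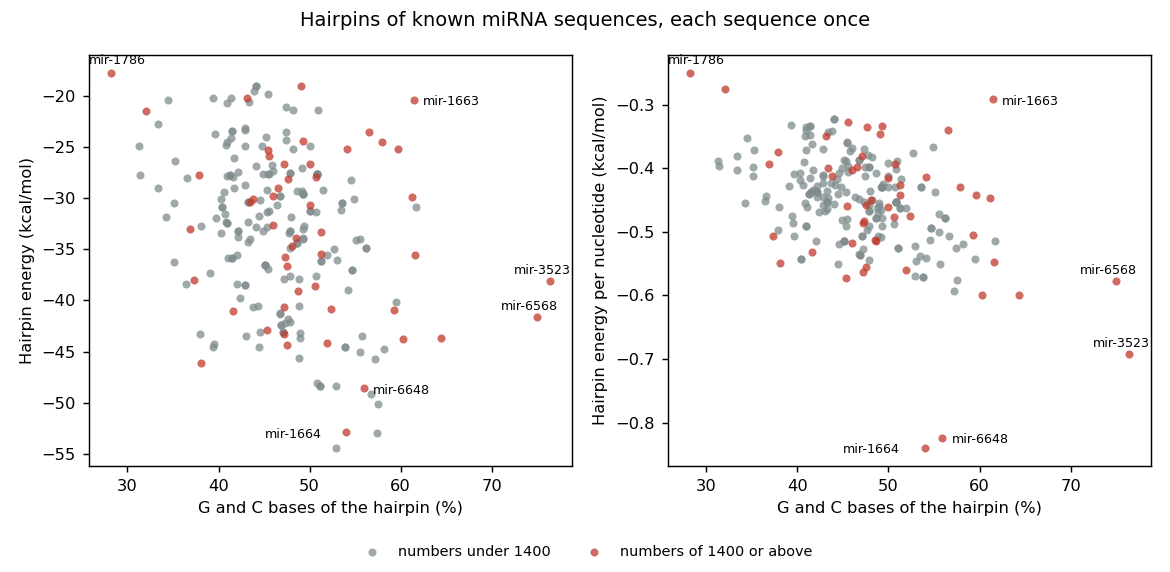
Energy of the hairpin (left, kcal/mol) and energy per nucleotide (right) against the percentage of G and C bases, for each known mature sequence once, with members in red and names under 1400 in grey. mir-3523 (76.4%) and mir-6568 (75%) lie to the right of all grey points, and mir-1664 and mir-6648 lie below them per nucleotide. mir-1663 is drawn at its doubtful day 6 energy, -20.4 kcal/mol.

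Every member sequence had 1 genomic hit, whereas 45 of the 180 others (25.0%) had more, up to 4. This held in each library, where between 22.7 and 27.0% of the sequences under 1400 had more than 1 hit. The first base of the mature sequence was T in 22 members (44.0%) and A in another 22 (44.0%), against 112 (62.2%) and 42 (23.3%) of the others. Members lay on 17 chromosomes, and 40.0% of them on chromosomes 1 to 4, against 42.8% of the others. On the Z chromosome lay 4 members (8%) and 13 others (7.22%). The 4 were mir-1416, mir-2131, mir-1756 with 9 reads on day 12, and mir-1779 with 14, 22 and 9 reads on days 6, 8 and 12.

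A star strand was listed for fewer members than other miRNAs. It was present on day 6 for 11 of 29 members (37.9%) and 49 of 83 others (59.0%), on day 10 for 4 of 13 (30.8%) and 40 of 63 (63.5%), and on day 12 for 11 of 31 (35.5%) and 54 of 92 (58.7%). Day 8 had it for 0 of 7 members and 19 of 44 others, and day 14 for 0 of 2 and 8 of 39. Entries were also split at 100 reads, a split chosen after the data were seen. Under 100 reads, a star strand was listed for 7 of 22 members and 6 of 10 others on day 6 (31.8 and 60%), 2 of 10 and 8 of 24 on day 10 (20.0 and 33.3%), and 6 of 23 and 5 of 14 on day 12 (26.1 and 35.7%). From 100 reads upward it was listed for 4 of 7 members and 43 of 73 others on day 6 (57.1 and 58.9%), 2 of 3 and 32 of 39 on day 10, and 5 of 8 and 49 of 78 on day 12 (62.5 and 62.8%). The share was thus lower for members in each of these libraries, by little on days 6 and 12 among entries of 100 reads or more, and the counts of members behind it are small.

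The star reads of mir-2964 were 88, 192 and 149 in the libraries of days 6, 10 and 12, or 3.11, 8.84 and 1.80 per 100 mature reads. Those of mir-2188 were 1, 30 and 57 on the same days, never above 1.43 per 100, and mir-1451 had 34 on day 6 and 58 on day 12. mir-1467 had more star than mature reads on day 6, 8 beside 6, and 4 beside 7 on day 12, and mir-1597 had 5 beside 7 on day 12. mir-6548 had 18 star reads beside 34 mature reads on day 6. A listed star strand for the other members (mir-1662, mir-1663, mir-1728, mir-1731, mir-1781, mir-1786, mir-1788, mir-1805 and mir-3532) rested on 1 to 18 reads.

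Most members lie within protein-coding genes. In RefSeq, 45 of the 48 names were matched to a miRNA gene on the same chromosome, and 36 of these (80.0%) overlapped a protein-coding gene, without regard to strand. The same was true of 80.0% of the 539 other chicken miRNA genes with numbers of 1400 or above and of 59.1% of the 208 with numbers under 1400. mir-2188 overlaps ANK1, which encodes an ankyrin of the red cell and muscle membrane skeleton, and mir-1559 overlaps ITGAV, an integrin subunit. mir-1451 overlaps RNGTT, the mRNA capping enzyme, mir-1662 VIPR1, a receptor for vasoactive intestinal peptide, and mir-3523 DUSP1, a phosphatase of MAP kinases. mir-1731 overlaps KLF15, a transcription factor known in the mouse to restrain hypertrophic growth of the heart, and mir-1734 overlaps UTRN, the dystrophin relative utrophin. The messages of these genes were not measured here. In the predicted targets of the 6 libraries, 525 to 840 lines for 10 miRNA names each, 0 lines belonged to a member.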

How the data were processed

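Small RNA of chick embryo hearts was sequenced in 6 libraries, 1 per stage. Per the study's methods, adapters and low-quality reads were removed, tags were mapped with BLAT to Gallus gallus v.2.1, and known miRNAs were found in miRBase 19.0. The submitters' processing notes name TopHat and Cufflinks without a version. The authors deposited, for each known miRNA and each NSSC, the count of reads of the mature sequence, its genomic hits, star strand, hairpin, position and folding energy in kcal/mol. The deposited RPM values were made by the authors and equal the count times 1 constant per library, within 0.1% for all rows compared except 6 of 41 on day 4. Also deposited was the percentage of G and C bases in the hairpin. The p-value deposited beside each hairpin was not used, and the score of each miRNA and target in the deposited target lists was used only to read those lists. The column names of the known list of day 6 were shifted by 1 place, so all lists were read by position.

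Members are names with a number of 1400 or above. They, the lists and the comparisons were chosen with earlier results of these data known. Lines without values were not used (366 of the known list on day 10, 4 of its NSSCs, and 1 in each list of day 12). Named are the members in at least 2 libraries, the 3 of most reads per library, those on chromosome Z, the extremes of energy and of G and C, those with a star strand, and, added after their values were seen, the names listed on 1 day. Shares carry 95% Wilson intervals and log2 ratios of RPM 95% intervals of the counts. Both were run on simulated counts drawn from the model that the intervals assume. The expected counts there were above those of the rarest members and had no listing limit, so the intervals of rare members were not checked. A member is called higher or lower past 2-fold, with no test. The alternatives concern the unit of counting, the lowest number, the lowest reads, the length, the denominator, NSSCs on the same arm, and the scale and fold of the ratios. Refolded energies and the split of star strands at 100 reads were added after the data were seen. Positions were used as deposited, with no genome, and neighbouring genes came from the RefSeq annotation. Python 3.11.15, pandas 2.3.3, scipy 1.17.1 and ViennaRNA 2.7.2 were used.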

Additional observations from a re-analysis of the deposited data

Results flagged for a closer look

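At the mir-2131 hairpin on chromosome Z, a sequence of 21 nt had 166 reads on day 10 outside the mature arm, among the sequences absent from miRBase. It lies at chrZ:68816739-68816759, on the 3′ side of the known mature sequence and on the same strand, and no known entry of mir-2131 was listed on that day. At the mir-2964 locus a sequence of 22 nt on the opposite strand, at chr17:5577871-5577892, had 6 reads on day 4, the lowest number listed there. These were the only entries of the lists of sequences absent from miRBase that overlapped a member hairpin outside its mature arm, and their source was not tested. RefSeq places the gene of miR-219 across that of mir-2964, and whether the day 4 sequence belongs to it was not tested.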

How the results depend on the processing

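With 1 library per stage no replicate could be left out. No paired analysis was possible because each stage had 1 library. Of the recomputed values, 102 stayed within their counting interval, within 1 SD or within 1.5 times of the main count, and 32 did not. The 102 include every value of day 4, all of them 0. They also include every value with a lowest number of 1000, a limit that takes in no further name. Such values had little or no room to move, so the 2 counts do not measure how stable the results are. With 2000 as the lowest number the members were 11, 2, 6 and 9 on days 6, 8, 10 and 12, and their shares 0.161, 0.0214, 0.248 and 0.558%. A lowest number of 1000 gave the same members. With only the most frequent length, 17 members were left on day 6 and 20 on day 12. With at least 10 reads, 7 were left on day 10. With NSSCs on the same arm there were 17 members on day 8 and 24 on day 10, and the shares on these days were 0.742 and 0.311%. Against the total behind the RPM values, the shares of days 6, 8, 10, 12 and 14 were 0.0764, 0.00771, 0.137, 0.122 and 0.0521%, so that day 10 and not day 14 came first. Against known sequences and NSSCs together they were 0.0354% on day 8 and 0.589% on day 12. Without the member of most reads they were 0.129, 0.0312, 0.146, 0.149 and 0.252%. With a limit of 4-fold, 0 of 5 members were higher on day 8 than on day 6 (7 of all 28), and 1 of 20 was higher and 9 lower on day 12 than on day 6 (13 and 28 of all 87). Between days 6 and 10, matching by name gave 5 higher members of 7 (19 of all 48), and shares of known reads gave 2 lower of 5 (5 of all 17). The medians of hairpin energy and of G and C stayed within 1 SD under all alternatives run, among them the refolded energies. That limit is wide. Among member hairpins the SD was 8.49 kcal/mol for energy and 9.23 percentage points for G and C. A member median of -40.3 kcal/mol on day 10 beside -33.15 for all members counted as unmoved. The limit therefore says little about the small differences between members and others. The small number of known reads limits the statements on days 4 and 14. There, 2 members would have reached the lowest number listed if the shares of day 6 or day 12 had held.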
